A study of Mus musculus with 4 samples.

Results

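Chemokines of the CXC family are small secreted proteins that recruit white blood cells, and 8 of their genes are described here across the cell classes of mouse liver tumours together with Cxcr2, the receptor of the neutrophil-attracting members. The 9 genes are Cxcl1, Cxcl2, Cxcl9, Cxcl10, Cxcl12, Cxcl13, Cxcl14, Cxcl16 and Cxcr2, taken by name from a table of 17813 genes. Single-cell RNA libraries had been prepared from digested tumour tissue of 5-month-old C57BL/6 mice with a 10x Genomics kit that counts the 3′ ends of transcripts. There were 4 samples, 2 from Miz1Δhep mice and 2 from Miz1F/F mice. Miz1F/F mice carry floxed Miz1 alleles, and the labels give no Cre line for Miz1Δhep mice. Every mouse, controls included, had received the carcinogen diethylnitrosamine (DEN, 25 mg/kg, intraperitoneally, at week 2), followed each week by the liver toxin CCl4 at 0.5 ml/kg in corn oil, so no group shows an untreated liver. The labels and the table do not tie any cell to a sample. No value below therefore compares the genotypes, and the 4 suffixes of the cell barcodes, called barcode sets 1 to 4, are not replicates of a group. P-values were not computed.

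Cxcl1 and Cxcl2 bind Cxcr2 and draw neutrophils out of the blood. Cxcl9 and Cxcl10 are induced by interferons and attract activated T cells and NK cells through Cxcr3. Cxcl12 binds Cxcr4 and keeps blood cells in their niches, Cxcl13 guides B cells through Cxcr5, and Cxcl16 is a membrane-anchored ligand of Cxcr6 that can be shed. Cxcl14 is a chemokine of epithelia and macrophages whose receptor is debated.

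On the mouse build GRCm38, 5 of the 9 genes lie on chromosome 5. Cxcl1 (chr5:90891241-90893115, plus strand) and Cxcl2 (chr5:90903871-90905938, plus strand) are neighbours in 1 group, and Cxcl9 (chr5:92321347-92328079) and Cxcl10 (chr5:92346638-92348889), both on the minus strand, are neighbours in another. Cxcl13 lies at chr5:95956951-95961068. The other members lie at chr6:117168535-117181367 (Cxcl12), chr13:56288643-56296551 (Cxcl14), chr11:70453983-70459984 (Cxcl16) and chr1:74153989-74161246 (Cxcr2). The promoters of these 2 pairs of neighbours are shown because each pair shares inducers in the textbook account, NF-kappaB for Cxcl1 and Cxcl2 and interferons for Cxcl9 and Cxcl10, while their levels differed between cell classes. Each runs 5′ to 3′ on the gene's own strand, 250 bases before the start and 50 bases from it, from RefSeq on GRCm38.p6. Capitals mark every match to the kappaB consensus (both strands, overlapping matches joined), to GAAANNGAAA or TTCNNNGAA (both strands), and to TATAAA (sense strand).
Cxcl1: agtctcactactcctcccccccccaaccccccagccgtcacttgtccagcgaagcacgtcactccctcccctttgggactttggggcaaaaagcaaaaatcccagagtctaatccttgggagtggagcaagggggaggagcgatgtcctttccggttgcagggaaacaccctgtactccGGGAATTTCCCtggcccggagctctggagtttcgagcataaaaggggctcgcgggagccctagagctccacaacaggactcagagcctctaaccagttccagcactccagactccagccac
Cxcl2: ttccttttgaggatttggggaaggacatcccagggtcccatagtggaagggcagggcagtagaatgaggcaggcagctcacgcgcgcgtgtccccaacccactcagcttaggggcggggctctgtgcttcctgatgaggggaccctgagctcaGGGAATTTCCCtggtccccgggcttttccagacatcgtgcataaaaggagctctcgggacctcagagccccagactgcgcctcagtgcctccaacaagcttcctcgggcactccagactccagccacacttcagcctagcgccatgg
Cxcl9: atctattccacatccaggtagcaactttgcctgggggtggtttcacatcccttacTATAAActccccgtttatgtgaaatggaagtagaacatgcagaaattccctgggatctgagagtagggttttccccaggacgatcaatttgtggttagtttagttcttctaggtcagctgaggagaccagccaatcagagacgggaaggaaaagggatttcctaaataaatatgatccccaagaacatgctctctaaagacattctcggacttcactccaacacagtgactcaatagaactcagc
Cxcl10: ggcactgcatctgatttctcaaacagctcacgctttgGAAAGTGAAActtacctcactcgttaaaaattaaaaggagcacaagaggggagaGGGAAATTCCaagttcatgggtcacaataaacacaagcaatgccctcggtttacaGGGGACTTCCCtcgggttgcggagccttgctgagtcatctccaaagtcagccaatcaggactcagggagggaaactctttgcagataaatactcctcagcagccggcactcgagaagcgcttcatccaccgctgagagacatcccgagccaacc
These windows are chr5:90890995-90891294 (Cxcl1), chr5:90903649-90903948 (Cxcl2), chr5:92328030-92328329 (Cxcl9) and chr5:92348840-92349139 (Cxcl10). Cxcl1 and Cxcl2 carry the same 11 letters, GGGAATTTCCC, which match the kappaB consensus on both strands, starting 71 and 97 bases before the start. Cxcl10 carries kappaB matches at 2 places, which begin 159 and 104 bases before the start, and 1 match to GAAANNGAAA that begins 213 bases before it. Cxcl9 has none of these in its window, only TATAAA at 195 bases before the start. Of all 32851 promoter windows of this length, 8.46% hold a kappaB match, 3.44% hold GAAANNGAAA, 8.3% hold TTCNNNGAA and 8.32% hold TATAAA. A match describes letters and is not a measured binding site. Among the members, 8 of 9 had a window, and Cxcl16 had none.

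The table held 24802 cells and 65920312 UMIs (unique molecular identifiers, each standing for 1 captured RNA molecule). Barcode sets 1 to 4 held 2574, 6224, 4825 and 11179 cells, with a median of 2648, 906, 1037 and 1859 UMIs per cell. Clustering without 24 listed CXC genes gave 25 clusters, which were named from marker lists into 16 classes, and 469 cells (1.89%) stayed unnamed. In 10 of the 19 marker lists every gene was highest in its own class, but for the Krt8/Sox9 epithelial cells only Krt8 and Krt18, 2 of 6, were, so that class is called by its genes. It held Sox9 at 459.9 CPM, against 40.5 CPM in hepatocyte-like and 615.2 CPM in cholangiocyte-like cells. The duct gene Epcam was at 6.34 CPM, against 0.40 and 833.2 CPM in the same order. Hnf4a was at 133.5 CPM, close to the 152.2 CPM of hepatocyte-like cells and above the 20.5 CPM of cholangiocyte-like cells. Sets 2 and 3 shared 115 cell barcodes, of which 58 fell in the same cluster in both sets, whereas other pairs shared between 13 and 109 with at most 4 in the same cluster. Leaving out all 748 cells with a shared barcode ended 1 call, given below.

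A level is the mean over the cells of a class of a gene's share of each cell's UMIs, scaled to 1000000 (CPM), so that every cell counts equally. Classes were compared within a barcode set that held at least 20 cells of both. To each level 10 CPM was added, and the ratio was taken on the log2 scale. A ratio is given as the median over sets with the lowest and highest set. Classes were ranked by their median level over sets where at least 2 sets had 20 cells, so the stromal/mesothelial-like class, which had them in set 3 alone, was not ranked, and classes can rest on different sets. A gene whose mean level in the pair reached 20 CPM counts as called higher or lower when the difference was at least 2-fold, in the same direction, in every set. UMI counts differed widely among the members, with 55461 for Cxcl2, 14249 for Cxcl1, 9636 for Cxcl10, 9332 for Cxcl16, 6168 for Cxcl9 and 738 for Cxcr2. Only 348 UMIs of Cxcl13, 328 of Cxcl12 and 309 of Cxcl14 were counted, so values of these last 3 genes rest on few molecules.

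**Figure D1:**
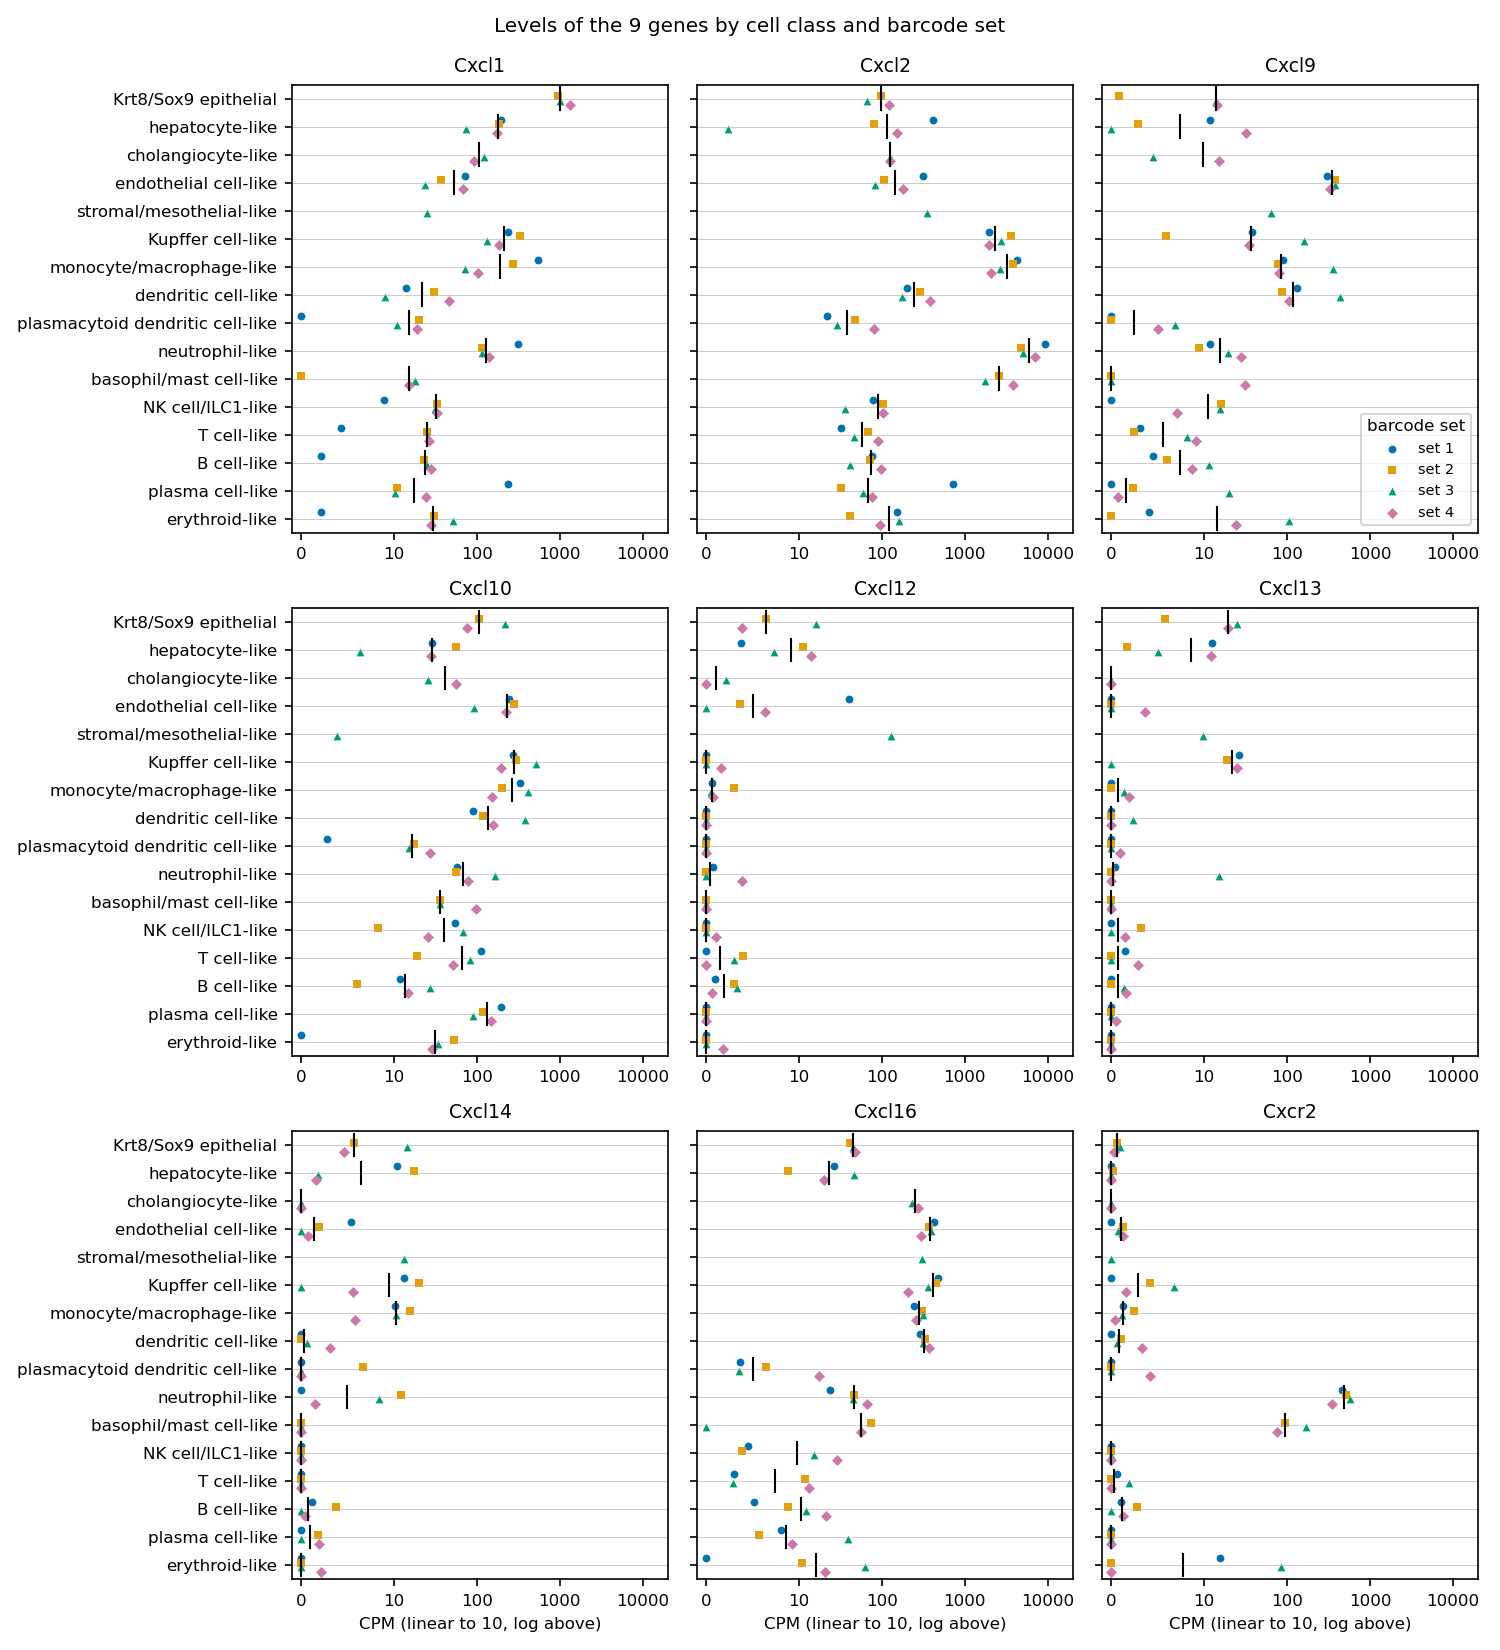
Level of each gene (CPM, on an axis that is linear to 10 and logarithmic above) by cell class; each symbol is 1 barcode set with at least 20 cells of the class, and the black bar is the median over sets. Cxcl1 peaks in Krt8/Sox9 epithelial cells, Cxcl2 in neutrophil-like and macrophage classes, Cxcl9 in endothelial cell-like cells and Cxcr2 in neutrophil-like cells, while Cxcl10 and Cxcl16 are spread over several classes.

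Among the ligands of Cxcr2, Cxcl1 was highest in the Krt8/Sox9 epithelial cells, at 949.5, 1002 and 1322 CPM in sets 2, 3 and 4. Set 1 held only 19 of these cells and is not used for the class. The next class was that of Kupffer cell-like cells (Kupffer cells are macrophages that live in the liver sinusoids), with 238, 330.3, 134.3 and 184.3 CPM in sets 1 to 4. The epithelial sets lay above every set of every other class that was measured. The log2 ratio of Krt8/Sox9 epithelial over Kupffer cell-like cells was 2.78 (1.5 to 2.81 over 3 sets). These 769 epithelial cells held 54.4% of all Cxcl1 UMIs, and 87.5% of those in set 3 but 14.3% of those in set 1.

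Below the epithelial cells, the order of Cxcl1 did not separate the classes. Monocyte/macrophage-like cells had 544.3, 273, 72.8 and 103.7 CPM in sets 1 to 4, so set 1 was highest and set 3 lowest. Hepatocyte-like cells had 195.2, 186.9, 74.4 and 175.1 CPM, and neutrophil-like cells 311.1, 114.3, 117 and 141.8 CPM. The ratio of Kupffer cell-like over monocyte/macrophage-like cells ran between -1.16 and 0.80 on the log2 scale, and that of monocyte/macrophage-like over hepatocyte-like cells between -0.70 and 1.43. Neighbours in this order thus changed places between sets.

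Krt8/Sox9 epithelial cells were set against hepatocyte-like cells, the parenchymal cells of the liver, in sets 2, 3 and 4. Cxcl1 was higher in the epithelial cells, with a log2 ratio of 2.85 (2.29 to 3.58), and the 2 ranges did not overlap. It was the only 1 of the 4 members over the filter that was called, where 7.63% of the 5298 genes over the filter were called higher and 4.17% lower. The median log2 ratio was 1.05 over these 4 members and 0.31 over all 5298 genes. Why the median of all genes was shifted was not tested. With that median set to 0 in each set, 231 genes were higher and 335 lower, against 404 and 221 without it, and the Cxcl1 call was kept. The Cxcl1 ratio was 2.25 with summed UMIs and 2.26 with cells under 500 genes left out. Cxcl10 was higher in all 3 sets (1.15, 0.79 to 3.82) without reaching 2-fold in set 2, and without that set it was called (2.48). Cxcl2 and Cxcl16 did not keep 1 direction over the sets.

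After each cell was thinned to 500 UMIs, a Cxcl1 UMI was found in 29.7% of Krt8/Sox9 epithelial cells (exact binomial 95% interval 26.4 to 33.2%) and in 7.25% of hepatocyte-like cells (5.81 to 8.92%). In B cell-like cells, which are not a known source, the share was 1.17%. Without thinning the shares were 68.4%, 25.4% and 2.58%, at a median of 6180, 1620 and 1163 UMIs per cell. Thinning left out 42, 91 and 901 cells of these classes with fewer UMIs. Intervals of this kind cover counting error only. B cell-like cells had 0.429 to 0.630 UMIs of Cxcl1 per UMI of Krt8 in sets 2 to 4, and Krt8/Sox9 epithelial cells 0.327 to 0.544. In Kupffer cell-like cells it was 4.33 to 9.56 in the same sets, above the ratio of the epithelial cells in every set. Whether free RNA adds to the low levels in lymphocytes was not tested.

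**Figure D2:**
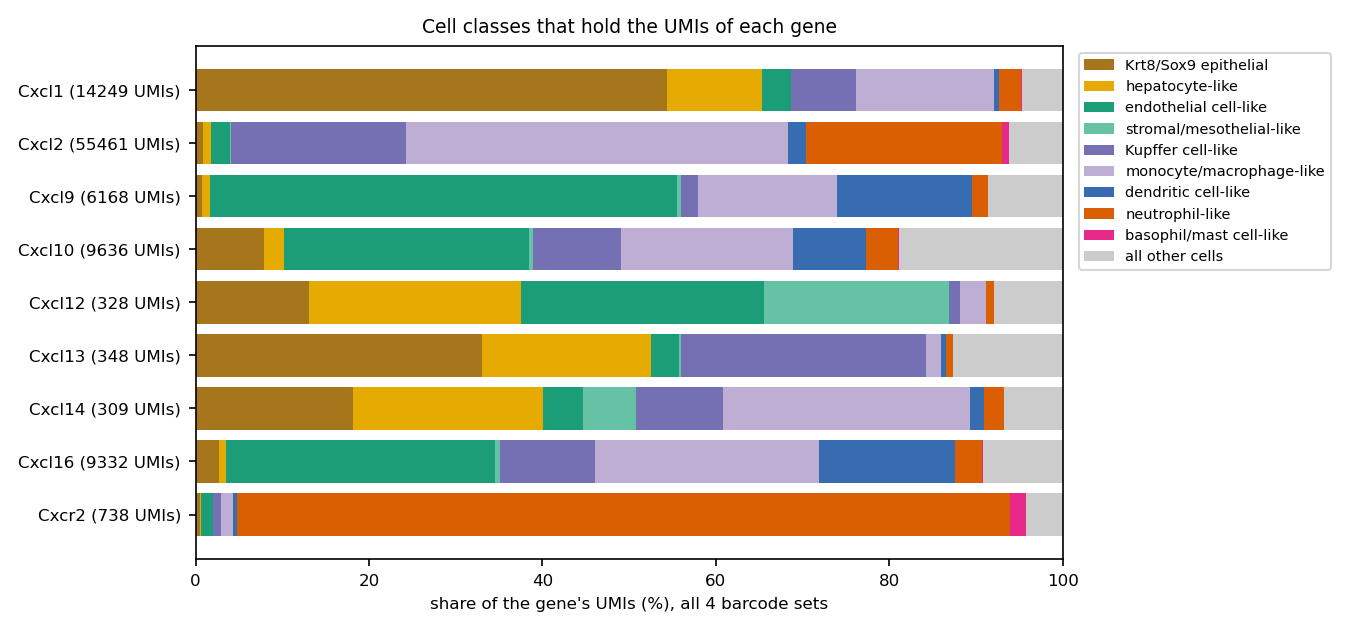
Share of each gene's UMIs (%) held by cells of each class, over all 4 barcode sets; the number of UMIs stands beside the gene. Krt8/Sox9 epithelial cells hold 54.4% of Cxcl1, monocyte/macrophage-like cells 44.0% of Cxcl2, endothelial cell-like cells 53.9% of Cxcl9 and neutrophil-like cells 89.2% of Cxcr2; shares depend on how many cells of a class were captured and on their depth.

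Cxcl2 was a gene of neutrophils and macrophages in this tissue. Neutrophil-like cells had 9225, 4735, 4991 and 6894 CPM in sets 1 to 4. Monocyte/macrophage-like cells had 4232, 3806, 2611 and 2088 CPM, and Kupffer cell-like cells had 1934, 3596, 2719 and 1937 CPM. Neutrophil-like cells were higher in each set, and the lowest neutrophil set was above the highest monocyte/macrophage set. In basophil/mast cell-like cells the level was 2556, 1745 and 3822 CPM in sets 2, 3 and 4, on 105, 38 and 267 UMIs, so its place among the macrophage classes could not be set. Dendritic cell-like cells came next among the ranked classes with 174.2 to 382.3 CPM, and stromal/mesothelial-like cells had 352.1 CPM in set 3, on 30 UMIs, against 174.2 CPM in dendritic cell-like cells there. In each set, Kupffer cell-like cells were above dendritic cell-like cells, by a log2 ratio of 3.41 (2.31 to 3.89).

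The lead of neutrophil-like over monocyte/macrophage-like cells was not kept under every treatment of shallow cells. With each cell counted equally the log2 ratio for Cxcl2 was 1.03 (0.31 to 1.72). With the UMIs of a class summed, so that deep cells weigh more, it was -0.14, and with cells under 500 genes left out it was 0.047. The deeper of the neutrophil clusters described below had less Cxcl2, and the parts of depth and of cluster mix were not tested. Monocyte/macrophage-like cells, which were deeper (a median of 2849 UMIs, against 1082 in neutrophil-like cells), held 44.0% of all Cxcl2 UMIs, and neutrophil-like cells held 22.6%. Thinned to 500 UMIs, 67.4% of neutrophil-like cells (64.7 to 70.0%) had a Cxcl2 UMI. The shares were 46.9% of monocyte/macrophage-like, 49.5% of Kupffer cell-like and 3.98% of B cell-like cells. Unthinned shares were 79.7%, 70.1%, 64.4% and 8.30%, in the same order. Kupffer cell-like cells had 6.76 to 19.9 Cxcl2 UMIs per UMI of the neutrophil genes S100a8 and S100a9, and neutrophil-like cells 0.0312 to 0.0822.

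Neutrophil-like cells fell into 2 clusters. One of 1116 cells was led by Csf3r and G0s2, and one of 248 cells by Ngp and Camp, which code for granule proteins made by developing neutrophils. Cxcl2 was at 11038, 5923, 8835 and 7676 CPM in the Csf3r/G0s2 cluster and at 723.6, 369, 750.3 and 1066 CPM in the Ngp/Camp cluster, in sets 1 to 4. The 2 ranges were far apart, with a log2 ratio of 3.73 (2.84 to 3.97). Cxcr2 was at 545.6, 645.5, 977.9 and 388.6 CPM in the Csf3r/G0s2 cluster, against 81.2, 27.5, 123.9 and 29.4 CPM in the Ngp/Camp cluster, a log2 ratio of 3.11 (2.61 to 4.13). Thus both the ligand and its receptor were higher in the same cluster in all 4 sets. Of the 6 members over the filter, 2 were called higher, beside 6.57% of 4518 genes, and none was called lower, beside 5.58%. Cxcl1 was higher in all 4 sets (1.41, 0.63 to 4.08) and was called without set 3 (1.63). The median log2 ratio was 0.45 over those 6 members and 0.02 over all 4518 genes. Cxcr4, the Cxcl12 receptor that marks aged neutrophils, was also called higher (2.67, 2.10 to 3.49). Cells of the Ngp/Camp cluster were deeper, with a median of 3659 to 8116 UMIs in a set, against 502 to 1470 in the Csf3r/G0s2 cluster, and the part of depth in these ratios was not tested. With cells under 500 genes left out, Cxcl2 kept a log2 ratio of 2.92. The calls of Cxcl2 and Cxcr2 held in all 13 alternatives, but leaving out a set or dropping the filter could not have ended them. For Cxcr2 the ratio was 4.11 with summed UMIs and 2.51 with 50 CPM added.

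**Figure D3:**
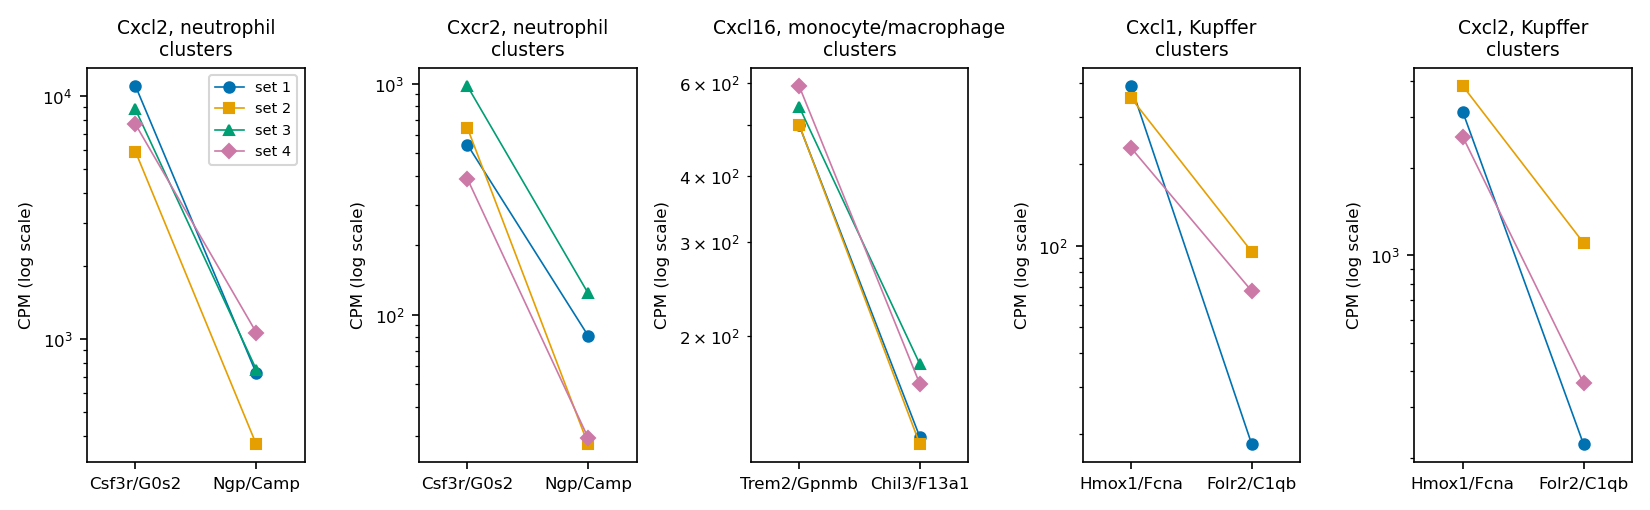
Level (CPM, log scale) of 4 genes in pairs of clusters within 1 class; each line is 1 barcode set with at least 20 cells of both clusters. Cxcl2 and Cxcr2 are higher in the Csf3r/G0s2 than in the Ngp/Camp neutrophil cluster, Cxcl16 is higher in the Trem2/Gpnmb than in the Chil3/F13a1 cluster, and Cxcl1 and Cxcl2 are higher in the Hmox1/Fcna than in the Folr2/C1qb Kupffer cluster, in each set shown.

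Within the Csf3r/G0s2 cluster, cells with and without a Cxcl2 UMI at 500 UMIs were compared in sets 1 and 4, the only sets with at least 20 cells on each side. Cells with Cxcl2 numbered 280 in set 1 and 412 in set 4, and cells without it 69 and 119. Il1b, which codes for the inflammatory cytokine interleukin-1 beta, was at 13336 and 5083 CPM in cells with Cxcl2, against 6551 and 3109 CPM in cells without it. The chemokine genes Ccl3 and Ccl4 were higher by log2 ratios of 1.21 and 1.43 in set 1 and of 1.05 and 1.57 in set 4. Cd274, which codes for the checkpoint ligand PD-L1, had log2 ratios of 1.90 and 1.0, on 19 and 23 UMIs in cells with Cxcl2, against 1 and 3 in cells without it. S100a8 was lower (-0.76 and -0.48), and so was S100a9 (-0.62 and -0.42). These cells are from 1 set each and are not replicates, and a cell without a UMI may still hold the transcript.

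Cells with a Cxcr2 UMI in this cluster numbered 80 in set 1 and 83 in set 4, and cells without one 269 and 448. Cxcl2 was at 7225 and 6024 CPM in cells with Cxcr2, against 11732 and 8045 CPM in cells without it. S100a8 was at 73800 and 50386 CPM in cells with Cxcr2 and at 58751 and 43429 CPM in cells without it. The log2 ratios for Cxcl2 were -0.70 and -0.42, and in the split by Cxcl2 those for Cxcr2 were -0.45 and -0.12. Over all neutrophil-like cells, which include the Ngp/Camp cluster, no single direction was seen. There, cells with a Cxcl2 UMI had more Cxcr2 in each of the 4 sets, by log2 ratios of 0.16, 3.20, 0.31 and 0.30, the second on 1 Cxcr2 UMI in cells without Cxcl2. Cells with a Cxcr2 UMI had a lower level of Cxcl2 in sets 1 and 4 (-0.45 and -0.25), although a Cxcl2 UMI was found in 73.8% and 72.6% of them, against 69.5% and 70.8% of cells without Cxcr2. Back within the Csf3r/G0s2 cluster, cells with and without Cxcr2 differed in Ccl3 by -3.17 in set 1 and by -0.15 in set 4. Mmp8 differed there by 0.16 and 0.76, but over all neutrophil-like cells by -0.68 and 0.13.

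Cxcr2 was almost wholly a neutrophil gene in these data. Neutrophil-like cells had 463.9, 513.3, 571.9 and 346.1 CPM in sets 1 to 4 and held 658 of 738 UMIs, or 89.2%. Basophil/mast cell-like cells had 94.4, 171.8 and 75.2 CPM in sets 2, 3 and 4, on 3, 4 and 5 UMIs. All neutrophil sets were above all basophil/mast cell sets, with a log2 ratio of 2.06 (1.68 to 2.33). No other class had a median above 7.73 CPM. Erythroid-like cells had 15.5 CPM in set 1 and 85.6 CPM in set 3, on 8 UMIs in 3 cells over all sets. Thinned to 500 UMIs, 16.1% of neutrophil-like cells (14.1 to 18.2%) had a Cxcr2 UMI, against 0.0857% of B cell-like cells. The unthinned shares were 32.9% and 0.134%. Cxcr1, the sister receptor of neutrophils, had 27 UMIs in all, 26 of them in neutrophil-like cells.

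Against monocyte/macrophage-like cells, neutrophil-like cells differed in 3 members that were called. Cxcr2 was higher, by a log2 ratio of 5.39 (5.10 to 5.70), and was called in all 17 alternatives. Leaving out a set or dropping the filter could not have ended that call. The size of that ratio depended on the settings, at 7.84 with 1 CPM added, 3.38 with 50 CPM added, 4.17 with summed UMIs and 4.18 with cells under 500 genes left out. Cxcl16 was lower, at 24, 46.5, 45.4 and 66 CPM in neutrophil-like cells, against 244.4, 308.3, 315.9 and 257.2 CPM in monocyte/macrophage-like cells, a log2 ratio of -2.52 (-2.91 to -1.81). Cxcl9 had a log2 ratio of -2.18 (-3.66 to -1.25). Cxcl10 was not called, but was called lower without set 4 (-1.68) and at Leiden resolutions 0.5 (-1.73) and 2.0 (-1.74). Of 4761 genes over the filter, 4.45% were called higher and 5.12% lower, and 6 of the 9 members were over it. The median was -0.83 over those 6 and -0.26 over all 4761 genes. With summed UMIs the calls of Cxcl16 and Cxcl9 ended (log2 ratios -2.01 and -2.03), and that of Cxcl9 also ended with cells under 500 genes left out, with 50 CPM added and with a filter of 100 CPM.

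Dendritic cell-like cells had little of the Cxcr2 ligands. Cxcl2 was at 198.7, 287.4, 174.2 and 382.3 CPM in dendritic cell-like cells, far below every monocyte/macrophage set, and its log2 ratio was -3.76 (-4.35 to -2.42). Cxcl1 was at a median of 22.2 CPM in dendritic cell-like cells, against 188.4 CPM in the monocyte/macrophage-like class, a log2 ratio of -2.47 (-4.53 to -1.0). Both were called lower, beside 4.18% of 4788 genes, and none of the 5 members over the filter was called higher, beside 1.4%. Set 4 was the closest to the limit of 2-fold for Cxcl1, and that call ended in 5 of 17 alternatives, among them the one without shared barcodes (-2.42) and the one with 50 CPM added (-1.53). The median log2 ratio was -0.40 over the 5 members and -0.12 over all 4788 genes.

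**Figure D4:**
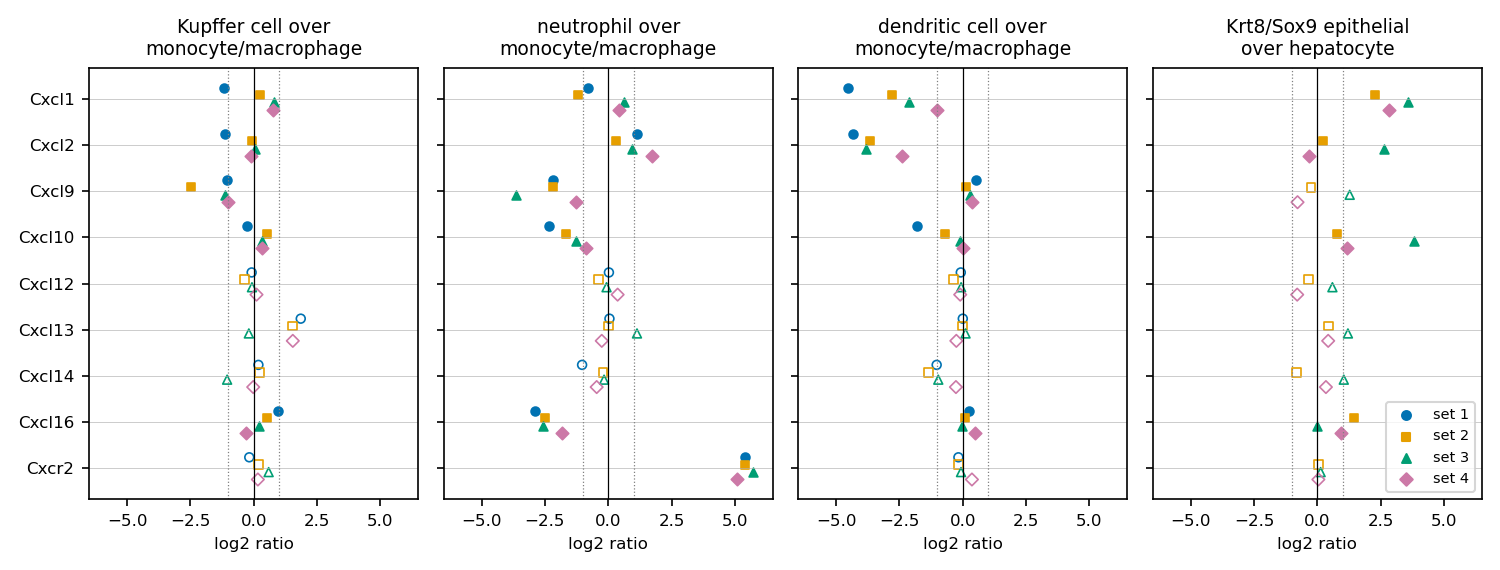
Log2 ratio of 2 classes for each gene, with 10 CPM added to both levels; each symbol is 1 barcode set, filled for genes over the filter of 20 CPM and open for the rest, and dotted lines mark 2-fold. Cxcr2 is higher in neutrophil-like cells (5.10 to 5.70), Cxcl2 is lower in dendritic cell-like cells (-4.35 to -2.42) and Cxcl1 is higher in Krt8/Sox9 epithelial cells (2.29 to 3.58).

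The macrophage classes, Kupffer cell-like against monocyte/macrophage-like, had overlapping ranges of most members. None of the 5 members over the filter was called in either direction, where 3.57% of 5329 genes were called higher and 2.51% lower. The median log2 ratio was 0.33 over the 5 members and 0.18 over all 5329 genes. In all 4 sets Kupffer cell-like cells had less Cxcl9, at a log2 ratio of -1.09 (-2.47 to -0.99), and 1 set kept it just short of the limit. Without set 4 it was called lower. Cxcl1, Cxcl10 and Cxcl16 were higher in 3 of 4 sets, and Cxcl2 was lower in 3 of 4.

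Kupffer cell-like cells were themselves of 2 clusters that differed in the Cxcr2 ligands. One, of 1492 cells, was led by Fcna and Hmox1, the heme-degrading enzyme, and the other, of 500 cells, by Folr2 and C1qb. In sets 1, 2 and 4, Cxcl2 was at 3123, 3835 and 2563 CPM in the Hmox1/Fcna cluster, against 223.2, 1104 and 362.7 CPM in the Folr2/C1qb cluster, a log2 ratio of 2.79 (1.79 to 3.75). Cxcl1 was at 390.6, 352.9 and 230.5 CPM in the Hmox1/Fcna cluster, against 18.3, 94.8 and 67.8 CPM in the Folr2/C1qb cluster, a log2 ratio of 1.79 (1.63 to 3.82). Both were called higher, beside 7.29% of 5269 genes, and none of the 7 members over the filter was called lower, beside 0.342%. Cxcl10 was higher in all 3 sets (1.92, 0.41 to 2.01) and was called without set 1 (1.96). Pf4, a CXC ligand of platelets and macrophages, was called lower (-1.63, -3.34 to -1.33). The median log2 ratio was 0.26 over the 7 members and 0.36 over all 5269 genes. The Folr2/C1qb cells were the shallower ones, with medians of 560 to 934 UMIs in these sets, against 889 to 3420 for the Hmox1/Fcna cells, and the part of depth was not tested. Both calls held in all 13 alternatives, but leaving out a set or dropping the filter could not have ended them. The Cxcl1 ratio was 2.73 without set 2 and 2.81 without set 4.

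Cxcl16 separated the clusters of the monocyte/macrophage-like class. The cluster led by Gpnmb and Trem2, a lipid receptor of tissue macrophages, had 499.4, 500.1, 541.1 and 592.1 CPM in sets 1 to 4. The cluster led by Chil3 and F13a1, genes of classical monocytes, had 128.4, 124.5, 176.4 and 161.7 CPM. Ace and Tppp3 were also among its leading genes, and classical and non-classical monocytes were not told apart in it. The sets of each cluster were close to each other and the clusters were well apart, with a log2 ratio of 1.84 (1.56 to 1.92). Cxcl16 was the only member called of the 5 over the filter, beside 2.94% of 4936 genes called higher and 2.21% called lower. The median was 0.90 over the 5 members and 0.00 over all 4936 genes. Pf4 was higher by 5.06 (4.31 to 5.57), with 481.4 CPM in the Trem2/Gpnmb cluster and 5.87 CPM in the Chil3/F13a1 cluster. Cxcl2 (0.90, 0.59 to 1.4) and Cxcl1 (1.06, 0.07 to 1.39) were higher in each of the 4 sets without reaching 2-fold in all. Median depth did not separate these clusters in a fixed direction, with 6415, 2136, 1475 and 5240 UMIs in the Trem2/Gpnmb cluster and 6237, 1374, 1515 and 3243 UMIs in the Chil3/F13a1 cluster.

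Over the classes, Cxcl16 was shared rather than peaked. Kupffer cell-like cells had 481.1, 452.6, 363.3 and 204.7 CPM, and endothelial cell-like cells had 420, 366, 390.1 and 293.1 CPM. Dendritic cell-like cells had 292.1, 331.5, 310.5 and 365.4 CPM. These ranges overlapped, and Kupffer cell-like cells were above endothelial cell-like cells in 2 of 4 sets. Cholangiocyte-like cells, which line bile ducts, had 229 and 274 CPM in sets 3 and 4, and were above basophil/mast cell-like cells by a log2 ratio of 3.34 (2.11 to 4.58). Hepatocyte-like cells (8.79 to 45.9 CPM), Krt8/Sox9 epithelial cells (41.0 to 48.0 CPM) and B cell-like cells (5.21 to 21.5 CPM) were well below these classes. Thinned shares were alike, at 12.8% of Kupffer cell-like, 14.2% of endothelial cell-like, 13.7% of dendritic cell-like and 12.0% of monocyte/macrophage-like cells, against 0.822% of B cell-like cells. Unthinned, they were 32.7%, 48.1%, 45.0% and 38.9%, against 1.89%. Cxcr6, the receptor of Cxcl16, was highest in T cell-like cells (118.9 CPM, 89.5 to 267.5), followed by NK cell/ILC1-like cells (67.9 CPM, 37.0 to 89.1).

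Cxcl9 was a gene of endothelial cells and, in some sets, of antigen-presenting cells. Endothelial cell-like cells had 300.2, 376, 384.9 and 332.2 CPM in sets 1 to 4. Dendritic cell-like cells had 132.6, 87.5, 438.1 and 106.1 CPM. Set 3 stood apart, as the only set in which dendritic cell-like cells were above endothelial cell-like cells, and the log2 ratio of endothelial over dendritic cell-like cells ran between -0.18 and 1.98 with a median of 1.34. Endothelial cell-like cells held 53.9% of all Cxcl9 UMIs, but 18.1% in set 1 and 16.1% in set 3. These cells numbered 99, 789, 405 and 1777 in sets 1 to 4. Their clusters were unevenly spread over the sets, and both large ones had the gene, at 329.3 to 406.9 CPM in the cluster led by Cldn5 and Igfbp7 and 203.5 to 378.4 CPM in that led by Acer2 and Timp3. The smaller cluster, of 662 cells led by Fam167b and Rab3b, is not described here. Thinned to 500 UMIs, 14.4% of endothelial cell-like cells (13.2 to 15.7%), 5.77% of dendritic cell-like cells and 0.308% of B cell-like cells had a Cxcl9 UMI. Unthinned, the shares were 40.5%, 13.5% and 0.802%, at median depths of 1890, 2382 and 1163 UMIs.

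Cxcl9 was also highest in set 3 in dendritic cell-like, monocyte/macrophage-like and Kupffer cell-like cells, but not in neutrophil-like cells, which had 11.9, 9.44, 19.4 and 27.8 CPM in sets 1 to 4. Monocyte/macrophage-like cells had 360.1 CPM in set 3, against 89.2, 78.3 and 80.1 CPM in sets 1, 2 and 4. Kupffer cell-like cells had 159.4 CPM in set 3, against 38.1, 5.93 and 35.3 CPM, though on 13 UMIs. Dendritic cell-like cells were above monocyte/macrophage-like cells in all 4 sets (0.32, 0.14 to 0.52) and these above Kupffer cell-like cells in all 4 (1.09, 0.99 to 2.47), so these 3 classes kept their order while the level moved. Endothelial cell-like cells did not stand out in set 3.

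Cxcl10 had no single leading class. Kupffer cell-like cells had 276, 293.6, 522.7 and 196.3 CPM in sets 1 to 4, and monocyte/macrophage-like cells had 335.3, 201.7, 415.2 and 153.7 CPM. Endothelial cell-like cells had 243.3, 278.5, 93.8 and 223.6 CPM. The macrophage classes were highest in set 3, as were dendritic cell-like cells at 385.1 CPM (89.0 to 156.8 CPM in the other sets), while endothelial cell-like cells were lowest there. Plasma cell-like cells had 89.1 to 194.1 CPM and Krt8/Sox9 epithelial cells 75.6 to 221 CPM, so neighbours in the order overlapped, and the median ratio of the first over the next class was 0.33 (-0.27 to 0.52). After thinning, 9.20% of Kupffer cell-like, 8.86% of endothelial cell-like and 7.32% of monocyte/macrophage-like cells had a Cxcl10 UMI, against 0.805% of B cell-like cells. Unthinned, the shares were 21.8%, 27.2% and 18.4%, against 1.56%.

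Cxcl9 and Cxcl10 were often found in the same cells of the antigen-presenting classes. At 500 UMIs per cell, Cxcl10 was found in 33 of 72 dendritic cell-like cells with Cxcl9 (45.8%, exact interval 34 to 58.0%) and in 33 of 1176 without it (2.81%). In monocyte/macrophage-like cells it was found in 34 of 89 cells with Cxcl9 (38.2%, 28.1 to 49.1%) and in 6.03% of those without it. In endothelial cell-like cells, where Cxcl9 was highest, the shares were 15.6% (12.3 to 19.4%) with Cxcl9 and 7.73% without it. Cells of 1 set share their library, and set 3 gave 45 of the 72 dendritic cell-like cells and 40 of the 89 monocyte/macrophage-like cells with Cxcl9. Within set 3 the shares with and without Cxcl9 were 48.9% and 3.83% for dendritic cell-like cells, and 60.0% and 8.75% for monocyte/macrophage-like cells. Within set 4 they were 17.2% and 4.58% for monocyte/macrophage-like cells.

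**Figure D5:**
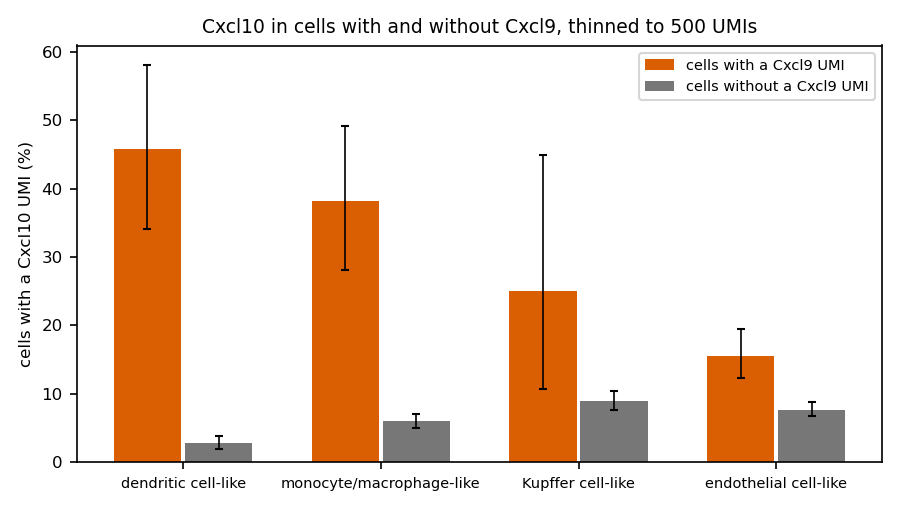
Share (%) of cells with a Cxcl10 UMI among cells with a Cxcl9 UMI (orange) and without one (grey), by class, each cell thinned to 500 UMIs; error bars are exact binomial 95% intervals over cells of all 4 barcode sets and cover counting error only. For cells with and without Cxcl9, dendritic cell-like cells show 45.8% and 2.81%, monocyte/macrophage-like cells 38.2% and 6.03%, Kupffer cell-like cells 25.0% and 8.96%, and endothelial cell-like cells 15.6% and 7.73%.

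Cxcl12 was measured in few cells, and the stromal/mesothelial-like class stood out. Its 62 cells held 70 of 328 UMIs (21.3%), 5 of them held 67.1% of those 70, and 22.6% of its cells had a UMI. Set 3, the only set with at least 20 such cells, had 130.3 CPM. Hepatocyte-like cells had 3.75, 11.1, 7.31 and 14 CPM in sets 1 to 4, and Krt8/Sox9 epithelial cells had 6.51, 16.1 and 3.83 CPM in sets 2, 3 and 4. Endothelial cell-like cells had 40.3, 3.63, 0 and 6.37 CPM, and 5 of them held 67.4% of their 92 UMIs. In hepatocyte-like cells, 5 cells held 15% of 80 UMIs. The stromal/mesothelial-like, endothelial cell-like and hepatocyte-like classes held 62, 3070 and 1222 cells, so shares held by 5 cells cannot be compared between them. A Cxcl12 UMI was found in 0.879% of endothelial cell-like and 5.56% of hepatocyte-like cells, below the share of stromal/mesothelial-like cells. Its receptor Cxcr4 was highest in neutrophil-like cells in sets 1, 2 and 4 (235.6, 927.8 and 622.2 CPM) and in basophil/mast cell-like cells in set 3 (863.0 CPM, against 666.6 CPM in neutrophil-like cells). Its scavenging receptor Ackr3 was highest in endothelial cell-like cells in sets 1, 2 and 4 (11.8, 14.3 and 23.9 CPM) and in stromal/mesothelial-like cells in set 3 (87.8 CPM, against 39.2 CPM in endothelial cell-like cells).

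Cxcl13 was at 26.3, 19.2, 0 and 24.8 CPM in Kupffer cell-like cells and at 5.85, 24.8 and 19.8 CPM in Krt8/Sox9 epithelial cells (sets 2, 3 and 4). These 2 classes overlapped, and the epithelial cells were above hepatocyte-like cells, at 1.64 to 12.7 CPM, in 3 of 3 sets (0.45, 0.43 to 1.21). B cells, the target of Cxcl13, had its receptor Cxcr5 at 106.8 CPM (81.7 to 153.4). Cxcl14 was at 10.4, 15.8, 10.7 and 5.81 CPM in monocyte/macrophage-like cells, where 79 of its 88 UMIs were in the Trem2/Gpnmb cluster, and at 13.3, 20.3, 0 and 5.62 CPM in Kupffer cell-like cells. Hepatocyte-like cells had 11.1, 17.8, 1.84 and 1.55 CPM, so no order among these 3 classes could be given. The stromal/mesothelial-like cells held 19 Cxcl14 UMIs, 9 of them in 1 cell.

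Of 15 further CXC ligands and receptors that were listed, 13 had a row in the table. Few reached the filter in a comparison, at most 2 in each. Cxcl5, another Cxcr2 ligand, was found in cholangiocyte-like cells (30.4 and 224.9 CPM in sets 3 and 4). In set 3 stromal/mesothelial-like cells were above them (44.6 CPM), and Krt8/Sox9 epithelial cells had 9.33, 1.38 and 28.0 CPM in sets 2, 3 and 4. Cxcl3 was at a median of 20.4 CPM in neutrophil-like cells. Cxcl17 was highest in Krt8/Sox9 epithelial cells (16 CPM, 2.69 to 32.8), and these cells held 75.8% of its UMIs. The scavenging receptor Ackr1 was highest in endothelial cell-like cells (57.3 CPM, 31.0 to 104.3), which also held 87.7% of the Ackr4 UMIs. By level, Ackr4 was highest in endothelial cell-like cells in sets 1 and 2 only (12.6 and 6.07 CPM). Stromal/mesothelial-like cells were above them in set 3 (31.1 against 8.64 CPM), and cholangiocyte-like cells in set 4 (39.8 against 7.45 CPM). Cxcr3, the receptor of Cxcl9 and Cxcl10, was highest in T cell-like cells (38.6 CPM, 14.2 to 93.4), close to plasmacytoid dendritic cell-like cells (33.6 CPM, 11.5 to 67.2). Ppbp had its highest median in B cell-like cells (17.7 CPM, 7.43 to 90.3). In set 4 it was instead highest in plasmacytoid dendritic cell-like cells (27.4 CPM). Pf4 was second highest in B cell-like cells in sets 1 and 3 (121.6 and 85.7 CPM). The source of Ppbp and Pf4 in B cell-like cells was not tested.

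The genes whose class levels most resembled each member were taken over 15 classes and 10036 genes, as a description in which all points share their libraries. The stromal/mesothelial-like class, which stood out for Cxcl12, was not among these 15. Cxcr2 ran closest with Ctsg (Pearson r 0.99), Ptgs2os2 (0.97) and Hcar2 (0.96), all highest in neutrophil-like cells. Cxcl2 ran closest with Igsf6 (0.99), Lpcat2 (0.96) and Ccl6 (0.96). Cxcl9 ran closest with Zmynd15 (0.97), Nav1 (0.96) and Nrp2 (0.91), all highest in endothelial cell-like cells, and Cxcl1 with Cfb (0.89), Itpkc (0.87) and Cstb (0.87), all highest in Krt8/Sox9 epithelial cells. For Cxcl16 they were Anxa3 (0.90), Hspa1b (0.89) and Ctbp2 (0.89), and for Cxcl10 they were Kcnk6 (0.84), Pparg (0.81) and Mnda (0.81). Among the low genes, Cxcl12 was nearest to Spryd4 (0.95), Ttpa and Aldh5a1 (0.94 each), Cxcl13 to Thrb (0.98), C4b (0.91) and Angptl4 (0.87), and Cxcl14 to Lpl (0.90), Tnfrsf21 and Fnip2 (0.87 each). Between members, Cxcl1 and Cxcl2 do not stand among the closest pairs, which were Cxcl1 with Cxcl14 (0.78), Cxcl1 with Cxcl13 (0.77), Cxcl9 with Cxcl16 (0.76) and Cxcl9 with Cxcl10 (0.71).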

How the data were processed

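The deposited table holds, for each gene and cell, a natural log value: ln(1 + 10000 times the share of the cell's UMIs). No header states this. It follows from the values, since their exponentials less 1 add up to 10000 per cell, and 100% of them, within a tolerance of 0.001, are multiples of the smallest value of the cell, from which UMIs were recovered. The submitters' processing notes name CASAVA 1.8, Cell Ranger, Seurat and mm10 without further versions or filters.

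Cells were clustered in scanpy 1.11.5 (2000 variable genes without the CXC genes, 30 components, 15 neighbours, Leiden resolution 1.0, seed 1). Clusters took the name of the marker list with the highest mean log2 fold; those with an unrelated list above 0.75 of it stayed unnamed, a rule set after seeing the clusters. Stromal cells came from resolution 2.0, also after seeing the data. Scrublet called 9 cells as doublets, too few to have worked, and none was removed, so doublets may be among the cells. The members and lists were chosen with earlier results of these data known, and comparisons of clusters were added after the clusters were seen. Named genes are the members, the listed CXC genes, up to 3 genes nearest each member by class levels, and a fixed neutrophil list, of which an item is not reported here. Cells cannot be assigned to samples, so the planned limma test between genotypes was not run; nor was sinusoidal against vascular endothelium, since no vascular cluster separated. The ratio and call were tested on simulated data. These held counting noise only, with changes put into genes well over the filter. Spread between cells and differences of a ratio between sets were not simulated. Positions are from GENCODE vM21 on GRCm38. Python 3.11.15, numpy 2.4.6 and scipy 1.17.1 were used.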

Additional observations from a re-analysis of the deposited data

How the results depend on the processing

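No paired analysis was possible because nothing in the sources used here pairs cells with samples. Under 17 alternatives for comparisons of classes and 13 for those of clusters, no called ratio changed sign, and 393 of 465 alternative values of class levels, highest-over-next ratios, shares and counts of genes stayed within their spread over the barcode sets, their counting interval or 1.5 times the count. Leaving out a set or changing the CPM added could not have changed the sign of a called ratio. The cause of the changes below was not tested, except where the alternative tests fewer genes. Values of Cxcl12, Cxcl13 and Cxcl14, and low levels in small classes, rest on few UMIs.

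With summed UMIs, levels moved to 1247 CPM for Cxcl1 in Krt8/Sox9 epithelial cells, 3172 CPM for Cxcl2 and 191.8 CPM for Cxcr2 in neutrophil-like cells, and 14.9 CPM for Cxcl12 in hepatocyte-like cells. With cells of at least 500 genes they were 3734 CPM for Cxcl2, 187.9 CPM for Cxcr2 and 15.7 CPM for Cxcl12. At Leiden resolution 0.5, Cxcl2 was 8338 CPM and Cxcr2 596.9 CPM in neutrophil-like cells, and the ratio of Cxcr2 over basophil/mast cell-like cells gave no value. The log2 ratio of the first over the next class became 0.047 (at least 500 genes) and -0.14 (summed UMIs) for Cxcl2. For Cxcr2 it became 1.65 (at least 500 genes), 1.29 (summed UMIs) and 1.66 (50 CPM added).

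Thinned to 500 UMIs, the share of cells with a UMI in the class ranked first by median level was 29.7% for Cxcl1, 67.4% for Cxcl2, 14.4% for Cxcl9, 9.20% for Cxcl10, 0.265% for Cxcl12 (hepatocyte-like, against 6.78% of the unranked stromal/mesothelial-like cells), 0.910% for Cxcl13, 0.584% for Cxcl14, 12.8% for Cxcl16 and 16.1% for Cxcr2.

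Counts of genes called higher and lower fell with a filter of 100 CPM, to 87 and 57 for Kupffer cell-like against monocyte/macrophage-like cells, 113 and 99 for neutrophil-like and 22 and 101 for dendritic cell-like against the same cells, and 127 and 119 for Krt8/Sox9 epithelial against hepatocyte-like cells. For the cluster pairs they were 194 and 115 (neutrophil), 69 and 54 (monocyte/macrophage) and 157 higher (Kupffer). With 50 CPM added, the counts in the same order were 84 and 57, 108 and 92, 26 and 83, 127 and 116, then 178 and 115, 66 and 42, and 125 and 10. With 1 CPM added, 286 genes were higher in Kupffer cell-like than monocyte/macrophage-like cells, and 35 lower in the Hmox1/Fcna than the Folr2/C1qb cluster. With the median gene set to 0, the counts were 231 and 335 for Krt8/Sox9 epithelial against hepatocyte-like cells, 160 lower for neutrophil-like cells, and 190 and 114 for the Kupffer clusters. For neutrophil-like cells, cells of at least 500 genes gave 87 and 134, summed UMIs 129 and 128, and Leiden resolutions 0.5 and 2.0 gave 374 and 396 lower. For the Kupffer clusters, cells of at least 500 genes gave 929 and 137.

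Leaving out each barcode set moved levels and ratios by less than their spread. Counts rose with fewer sets. They ran between 384 and 826 higher and between 18 and 136 lower for the Kupffer clusters, between 404 and 724 higher for Krt8/Sox9 epithelial cells (724 without set 4), and between 209 and 309 lower for dendritic cell-like cells (309 without set 4).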
